A study of Mus musculus with 3 samples.

Results

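Complement components and receptors were followed across the leukocytes of infarcted mouse hearts, through 8 genes of the 29298 with a column in the deposited tables. The set was C1qa, C1qb, C1qc, C3, C3ar1, C5ar1, Cfp and Cfb, chosen by name, and each had a column in all 18 tables. The study isolated CD45+ cells after permanent coronary ligation, at several time points, from F7fl/fl CX3CR1Cre mice and F7fl/fl WT mice, and asked about coagulation factor VII (F7) made by macrophages. Both genotypes carry the floxed F7 allele, and Cre is driven from the CX3CR1 locus, which is active in monocytes, macrophages and other mononuclear phagocytes, so Cre is not limited to the heart. The labels give no ages. The cells came as 3 pooled libraries of 7, 5 and 6 sample tags. The labels point to a separate table for what each tag holds, which was not used here. No comparison by genotype or time was made, and every test set 2 classes of cells of the same tag against each other.

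Complement is a cascade of plasma and tissue proteins that marks material for removal. C1q, built from the products of C1qa, C1qb and C1qc, recognises antibody complexes and dying cells and starts the classical pathway. C3 is the hub on which all pathways meet, factor B (Cfb) forms the convertase of the alternative pathway, and properdin (Cfp) stabilises it. The fragments split off from C3 and C5 act on receptors, C3ar1 and C5ar1, that steer myeloid cells. In injured tissue macrophages are known as a main source of C1q, whereas most plasma C3 comes from the liver.

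Of 25762 cells, 25640 had 200 or more genes and were put in the first matching of 7 classes by genes other than complement. The classes were T (1225 cells), B (779), neutrophil (488), fibroblast (415), DC (dendritic cells, 2099), macrophage (13905) and monocyte (1900), and 4829 cells met no criterion. T cells needed 2 or more Cd3e, Cd3d and Cd3g molecules, B cells 2 of Cd79a, neutrophils 1% of molecules from S100a8 and S100a9 with Csf3r, and fibroblasts 0.5% from Col1a1, Col3a1 and Dcn. DC needed Flt3, macrophages 2 molecules of Ms4a7 with Adgre1, and monocytes 2 of Ly6c2. Tags held 708 to 2494 cells and 10152522 to 62344127 molecules, where a molecule is a deduplicated read. All 7 T, all 6 B, all 7 neutrophil and all 7 fibroblast markers not used by the rule were highest in their own class, as were 6 of 7 for DC, 5 of 7 for macrophages and 4 of 7 for monocytes. Fcgr1 was highest in monocytes and Cd14 in neutrophils. Cells of 1 class could also meet a later criterion. Thus 530 T cells, 347 B cells and 720 DC also met the macrophage one, so these classes were described with and without them. Macrophages were matched before monocytes, so no monocyte could meet the macrophage criterion. In turn 2152 macrophages (15.5%) also met the monocyte one and stayed in the class, as the Ly6c2 positive macrophages described below. Macrophages had a median of 20794 molecules per cell, monocytes 11821, neutrophils 3997 and fibroblasts 26512. Libraries 1 and 2 shared 4 cell indices, libraries 1 and 3 shared 3, libraries 2 and 3 shared 0, and no tags of the same library shared any. Library 1 differs from libraries 2 and 3 in beads, pipeline release and the counting of intronic reads, and its run name holds d3, possibly a day; these, and any difference in time, cannot be told apart.

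On GRCm38, in GENCODE M21, the genes of C1q lie side by side on the minus strand of chromosome 4, within 18675 bases. C1qb (ENSMUSG00000036905.8) spans chr4:136880129-136886187, C1qc (ENSMUSG00000036896.5) chr4:136889804-136893065 and C1qa (ENSMUSG00000036887.5) chr4:136895917-136898803, with gaps of 3616 and 2851 bases. The rest are also on minus strands. C3 (ENSMUSG00000024164.15) lies at chr17:57203970-57228136, C3ar1 (ENSMUSG00000040552.8) at chr6:122847138-122856161, C5ar1 (ENSMUSG00000049130.6) at chr7:16246743-16259540 and Cfp (ENSMUSG00000001128.7) at chrX:20925454-20931555. Cfb (ENSMUSG00000090231.10, chr17:34856374-34862518) overlaps the protein-coding gene Gm20547 on the same strand, so its counts are uncertain.

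The 250 bases before the start of 6 of the 8 genes were found in the RefSeq promoter table for GRCm38.p6. The promoters of C1qb and C1qc are shown because these neighbouring genes moved together across classes, and that of C3 because it ran the other way. Each is printed 5′ to 3′ on the gene's strand, and capitals mark the motifs searched on both strands. These were GAGGAA, the core recognised by the ETS factor PU.1, TGCTGA, a site recognised by large MAF proteins, and TTGCNNAA, a C/EBP motif. The C1qb sequence is chr4:136886201-136886450, the C1qc sequence chr4:136892915-136893164, which reaches into the longer GENCODE gene model, and the C3 sequence chr17:57228137-57228386.
C1qb: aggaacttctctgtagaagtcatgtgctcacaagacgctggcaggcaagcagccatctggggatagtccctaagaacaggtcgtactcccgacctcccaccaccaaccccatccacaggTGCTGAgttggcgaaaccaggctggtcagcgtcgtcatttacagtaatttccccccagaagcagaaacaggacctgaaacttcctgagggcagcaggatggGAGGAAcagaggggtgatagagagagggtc
C1qc: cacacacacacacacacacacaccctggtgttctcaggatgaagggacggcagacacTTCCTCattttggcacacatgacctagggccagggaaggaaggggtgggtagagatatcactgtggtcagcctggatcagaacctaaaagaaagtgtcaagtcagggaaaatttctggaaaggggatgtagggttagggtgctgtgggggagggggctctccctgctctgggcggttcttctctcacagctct
C3: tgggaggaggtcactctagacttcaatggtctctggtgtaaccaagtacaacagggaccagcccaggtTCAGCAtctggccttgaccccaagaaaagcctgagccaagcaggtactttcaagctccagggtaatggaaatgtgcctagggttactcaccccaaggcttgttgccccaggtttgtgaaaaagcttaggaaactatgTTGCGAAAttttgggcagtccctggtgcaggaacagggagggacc
C1qb held GAGGAA 30 bases before the start and TGCTGA 131 bases before it, and C1qc held GAGGAA on the other strand, read as TTCCTC, 193 bases before its start. C3 held TTGCGAAA, a match to TTGCNNAA, 45 bases before the start and TGCTGA on the other strand, read as TCAGCA, at 182 bases. C3ar1 held TGCTGA on the other strand at 144 bases and C5ar1 held it at 17 bases, while the window of Cfp held none of these letters. Of all 32851 promoters in the table, 23.3% held GAGGAA, 16.1% TGCTGA and 9.56% TTGCNNAA, so matches are common, and they describe letters only.

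A larger share of macrophage RNA came from the C1q genes and C3ar1 than in every other class, and a smaller share from C3 than monocytes, neutrophils and fibroblasts. Molecules were summed per tag and class, with at least 20 cells, and compared by edgeR's quasi-likelihood test with the tag as a block and Benjamini-Hochberg adjustment over all genes tested. Cfb was too rare to be tested, which leaves 7 genes. Against monocytes 4 were higher and 1 lower in macrophages, where 34.7% of all genes tested were higher and 33.3% lower. Against DC 5 were higher and 1 lower, with 31.8% and 29.9% of all genes. Against neutrophils 5 were higher and 2 lower, with 39.7% and 20.8% of all genes, and against fibroblasts 6 were higher and 1 lower, with 35.2% and 32.3%. Against T cells 6 were higher and 0 lower, with 32.8% and 34.4%, and against B cells 5 were higher and 0 lower, with 25% and 26.4%. Calls were thus frequent among all genes, and the sizes and the tags described next carry more than the counts.

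**Figure D1:**
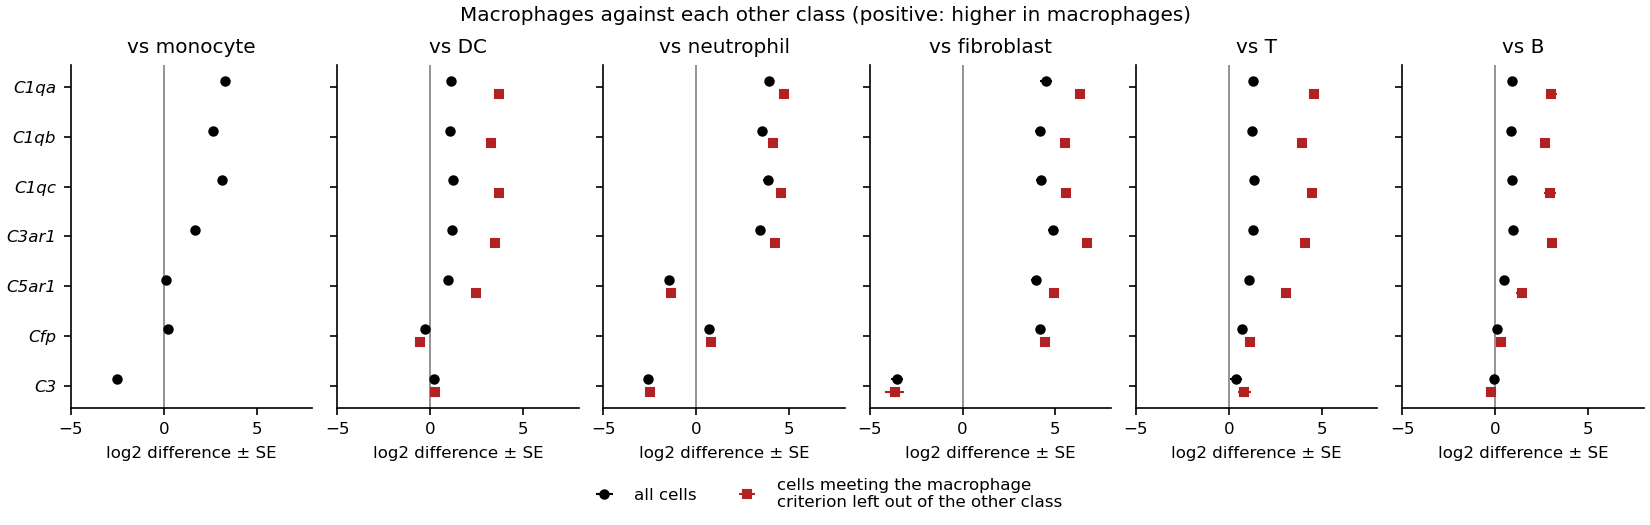
Log2 difference (x axis, ± SE) of 7 complement genes (rows) between macrophages and each other class, one panel a class, positive where macrophages were higher; black circles use all cells, and red squares leave cells that meet the macrophage criterion out of the other class. C3 lies left of 0 against monocytes, neutrophils and fibroblasts. The C1q genes lie right of 0 in every panel, and further right for the red squares. The monocyte panel has no red squares because the macrophage criterion was matched first, so no monocyte could meet it.

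The C1q subunits were highest in macrophages. Levels are CPM, scaled to the same total of molecules for each class and tag, and are set side by side between classes, not between genes. C1qa had a lowest, median and highest level of 823, 1141 and 1917 CPM in macrophages of the 10 tags with enough monocytes, against 41.9, 96.1 and 395 CPM in the monocytes. The classes did not overlap. C1qa was higher in macrophages by a log2 difference of 3.31 ± 0.23 (SE; adjusted p = 4.78e-07 by edgeR's quasi-likelihood test with Benjamini-Hochberg adjustment), in 10 of 10 tags. C1qb had 1352, 1773 and 3858 CPM in macrophages against 152, 204 and 1074 CPM in monocytes, and C1qc had 1475, 1960.5 and 2973 CPM against 109, 181 and 624 CPM. Neither pair of ranges overlapped, and the log2 differences were 2.68 ± 0.17 for C1qb and 3.11 ± 0.16 for C1qc. Of these 10 tags 7 belong to library 1, and without it the differences were 2.54 for C1qa and 2.04 for C1qb.

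Macrophages also held more C1q than neutrophils and fibroblasts. The sum of the 3 genes was 3650.0 to 9083 CPM in macrophages of 9 tags, with a median of 5062, against 126 to 948 CPM in neutrophils, with a median of 392. It was 4559 to 9596 CPM in macrophages of 9 tags, with a median of 8592, against 136 to 825 CPM in fibroblasts, with a median of 461. Neither pair of ranges overlapped. C1qa was higher in macrophages by log2 differences of 3.93 ± 0.20 against neutrophils and 4.47 ± 0.32 against fibroblasts, in 9 of 9 tags each. The median gene itself stood 0.53 above 0 in the comparison with neutrophils, whose cells held few molecules, and 0.73 above it with DESeq2 size factors. Relative to that median, C1qa was 3.40 higher in macrophages, and 3.39 with DESeq2 size factors.

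Within macrophages C1q levels split by library. C1qa ran between 823 and 1179 CPM over the tags of library 1, between 1853 and 2159 over those of library 2 and between 1643 and 1984 over those of library 3. The summed C1q level had a median of 4559 CPM over library 1, against 9083 CPM for library 2 and 8620.0 CPM for library 3. The tags of library 1 were all below those of the other libraries, and the differences between libraries named above cannot be told apart. All 3 subunits shared this step.

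**Figure D2:**
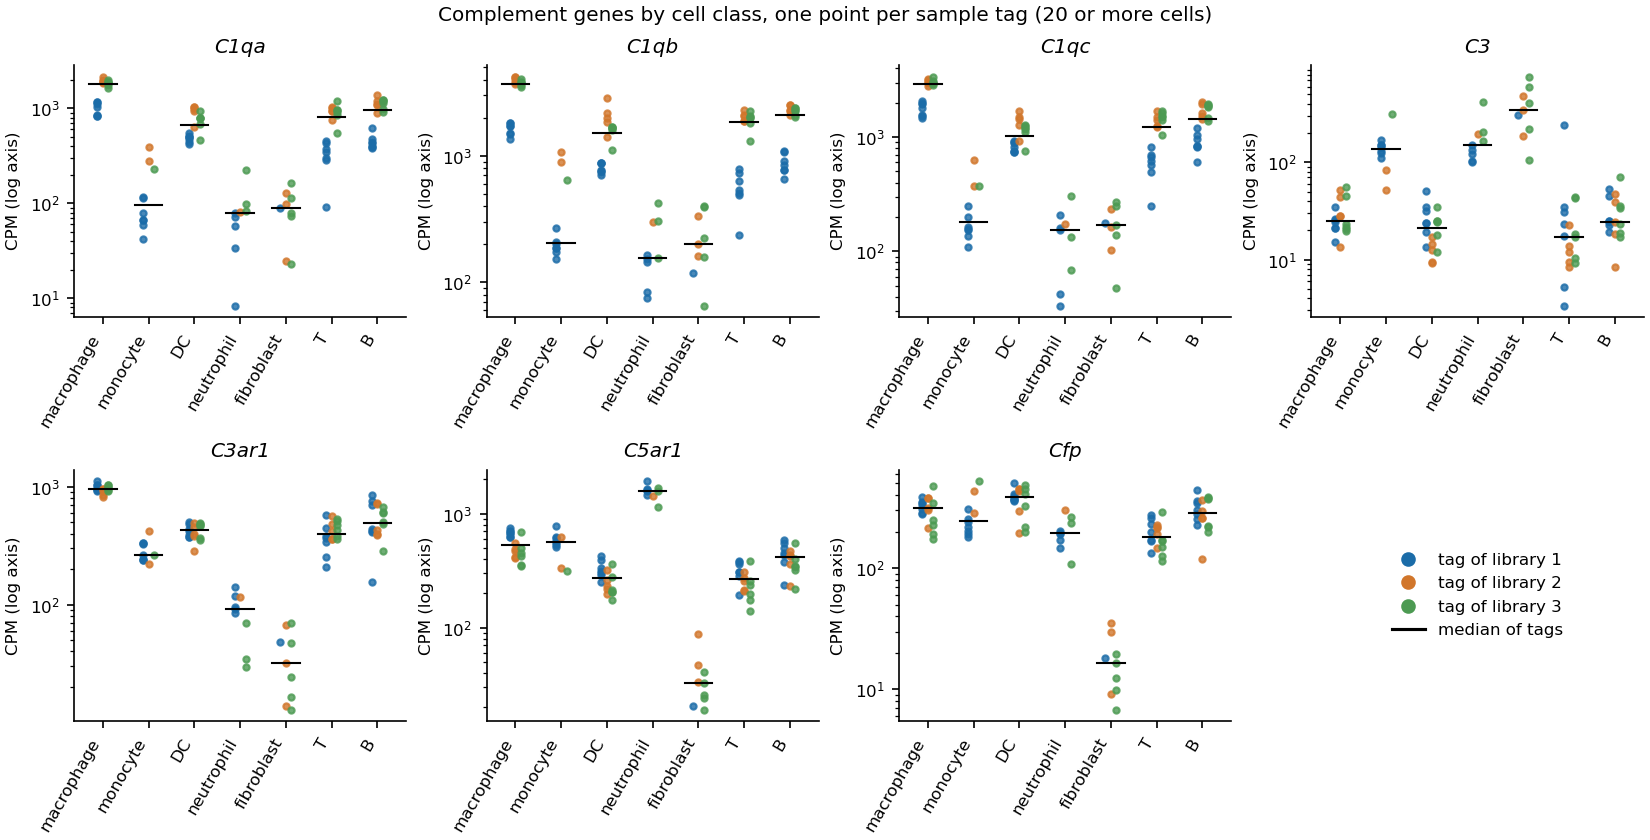
Level in CPM (log axis) of 7 complement genes by cell class, one point a sample tag with at least 20 cells of the class, coloured by library, with a bar at the median of tags. C1q genes and C3ar1 peak in macrophages, C5ar1 peaks in neutrophils with a median of 1572 CPM, and C3 peaks in fibroblasts with a median of 344 CPM.

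Lymphocytes, which do not normally make C1q, held much of it in these tables. Summed C1q was 576, 3967 and 5013 CPM (lowest, median, highest tag) in T cells and 1660.0, 4485 and 5912 CPM in B cells, against 3650.0, 8381 and 9596 CPM in macrophages. As a share of the macrophage level in the same tag, T cells stood at a median of 47.5% (15.8 to 56.5%) and B cells at 57.3% (36.4 to 68.2%). The medians were above those of monocytes, neutrophils and fibroblasts. T cells that did not meet the macrophage criterion stood at 6.22% (1.20 to 16.6%) and B cells at 16.5% (2.03 to 34.6%). T cells that met it stood at 66.7% (43.6 to 86.1%) and B cells at 76.0% (63.7 to 118%). The cells that met both criteria thus held most of the lymphocyte C1q.

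Molecules per cell differed between these lymphocytes. T cells that also met the macrophage criterion had a median of 109 C1q molecules and B cells that met it 98, beside 117 in macrophages, whereas lymphocytes of either kind that did not meet it had 2. Of 1225 T cells, 178 had 0 C1q molecules, 296 had 1 or 2, 193 had 3 to 9, 79 had 10 to 29 and 479 had 30 or more. Of those 479 cells, 450 met the macrophage criterion. Of 779 B cells, 113 had 0 and 337 had 30 or more, of which 296 met it. In macrophages 512 cells had 0 and 11314 (81.4%) had 30 or more. Many lymphocytes thus held a few C1q molecules, and a subset held as many as macrophages.

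**Figure D3:**
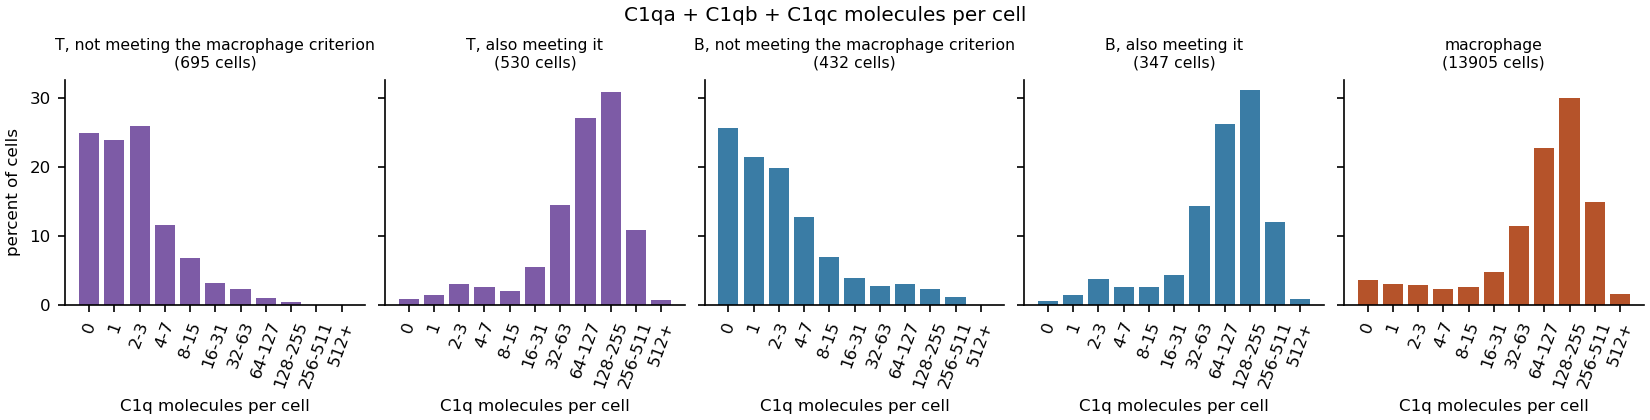
Percent of cells (y axis) by the number of C1qa, C1qb and C1qc molecules per cell (x axis, bins that double) in T cells and B cells that do not or do meet the macrophage criterion, and in macrophages. Lymphocytes that meet it peak at 128 to 255 molecules like macrophages, and those that do not peak at 0 to 3.

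Other macrophage genes were also found in the lymphocytes, here as levels pooled over tags. Over 15 such genes not in the rule, among them Apoe, Lyz2, Csf1r and Mrc1, the median level in T cells was 48.4% of that in macrophages, 11.8% in T cells that did not meet the macrophage criterion and 69.3% in those that did. In B cells the medians were 61.0%, 23.8% and 81.8%. On the same pooled measure summed C1q stood at 59.6%, 8.26% and 90.8% of the macrophage level in T cells. In B cells it stood at 69.9%, 23.6% and 96.8%. Among lymphocytes that met the macrophage criterion, C1q was thus above the median of the 15 genes. Apoe itself stood at 64.3%, 8.31% and 98.3% in the T cells. The summed level of the 7 macrophage markers had a median of 7519 CPM (2502 to 10477) in T cells and 8662 CPM (3423 to 13622) in B cells, against 15607 CPM (8619 to 19160) in macrophages. The source of the lymphocyte C1q was not tested, and no doublet caller was run.

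The make-up of C1q in T and B cells was close to that in macrophages of their library, and it differed between libraries. C1qa, C1qb and C1qc made up 22.3%, 38.0% and 39.8% of C1q molecules in T cells of library 1, against 22.7%, 37.2% and 40.1% in its macrophages. In library 2 the shares were 21.2%, 46.7% and 32.1% in T cells, against 22.2%, 44.2% and 33.6% in macrophages. In library 3 they were 21.4%, 44.3% and 34.2% in T cells, against 21.3%, 43.5% and 35.2% in macrophages. The gaps between T cells and macrophages of a library were smaller than the gap in C1qb between macrophages of libraries 1 and 2. B cells had 20.4%, 39.0% and 40.5% in library 1 and 21.8%, 44.2% and 34.0% in library 3. T cells that met the T criterion alone had less C1qa and more C1qb in libraries 1 and 3. Their shares were 16.1%, 47.0% and 36.9% in library 1 and 15.4%, 52.0% and 32.6% in library 3. In library 2, at 20.1%, 52.0% and 27.9%, C1qb was higher but C1qa was close to that of all T cells. Monocytes had less C1qa and more C1qb than macrophages in each library. They had 17.9%, 44.1% and 38.0% in library 1, 19.3%, 53.1% and 27.6% in library 2 and 16.6%, 50.4% and 33.0% in library 3.

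**Figure D4:**
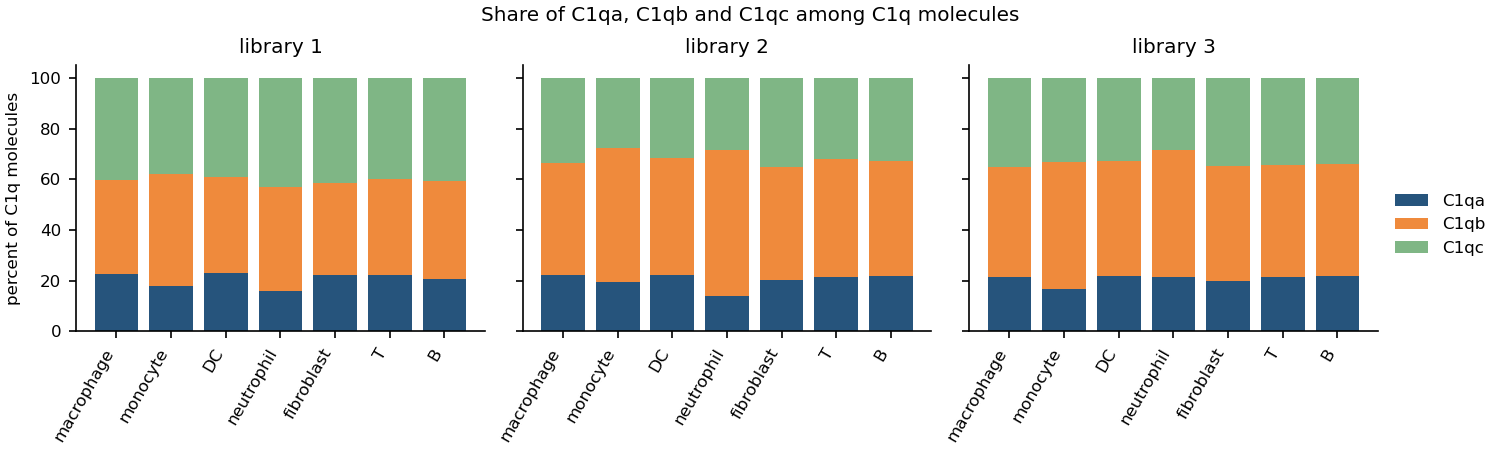
Percent of C1q molecules that belong to C1qa, C1qb and C1qc (stacked bars, summing to 100) in each class, one panel a library. T and B cells are close to the macrophages of their library, monocytes hold a smaller C1qa part, and C1qb takes more in libraries 2 and 3 (44.2% and 43.5% of macrophage C1q) than in library 1 (37.2%).

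Depth bears on the share of cells with a C1q molecule. Macrophages had one in 96.3% of cells and monocytes in 58.9%, against 75.1% of T cells that did not meet the macrophage criterion, whose median depth was 8745 molecules, and 74.3% of such B cells, with 6702.5. With each cell thinned to 1000 molecules, which left out 12 cells, the shares were 86.1% in macrophages, 19% in monocytes, 24.0% in neutrophils and 22.0% in fibroblasts, against 23.0% in those T cells and 30.6% in those B cells. The shares in neutrophils and fibroblasts lay within or below the range of those T and B cells, but the sets are unlike. Of 488 neutrophils 12, and of 415 fibroblasts 51, also met the macrophage criterion. With cells that met 1 criterion only, summed C1q had a median of 327 CPM in neutrophils (7 tags) and 157 CPM in fibroblasts (5 tags). Whether neutrophils and fibroblasts made this C1q themselves was not tested. Monocytes had the lowest share but not the lowest level. They were higher than those T cells by log2 differences of 1.01 ± 0.32 for C1qa (adjusted p = 0.0222 by edgeR's quasi-likelihood test), 1.16 ± 0.19 for C1qb (adjusted p = 0.000199) and 1.18 ± 0.27 for C1qc (adjusted p = 0.00381). Against those B cells the differences were -0.13 ± 0.37, 0.05 ± 0.27 and -0.08 ± 0.34 and did not pass. Share and level thus run in different directions, and no order is read from the monocyte share.

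C3, the central component, had its highest level in the few fibroblasts that came through the CD45 selection. Macrophages of the 9 tags with enough fibroblasts had 13.3, 24.3 and 56.1 CPM of C3 as lowest, median and highest. Fibroblast C3 was 310 CPM in tag 8 of library 1, 184, 344 and 485 CPM in tags 2, 4 and 5 of library 2, and 218, 760, 410.1, 107 and 600 CPM in tags 7, 8, 10, 11 and 12 of library 3. The classes did not overlap, though the fibroblast values spread widely. C3 was lower in macrophages than in fibroblasts by a log2 difference of -3.54 ± 0.33 (adjusted p = 3.58e-06 by edgeR's quasi-likelihood test with Benjamini-Hochberg adjustment), in 9 of 9 tags. Macrophages were 54.2% of all cells and held 37.0% of all C3 molecules, while fibroblasts were 1.62% of cells and held 23.5%, with up to 76.1% in a tag. CD45 selection sets how many fibroblasts are seen, so this says nothing of their number in the heart.

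Neutrophils and monocytes followed. Macrophages of the 9 tags with enough neutrophils had 15.2, 26.4 and 56.1 CPM as lowest, median and highest. Neutrophil C3 was 102, 121, 100.4, 132 and 151 CPM in 5 tags of library 1, 197 CPM in 1 tag of library 2 and 167, 205 and 419 CPM in 3 tags of library 3. Every neutrophil value lay above every macrophage value. The log2 difference of macrophages from neutrophils was -2.61 ± 0.20 (adjusted p = 2.54e-18 by edgeR's quasi-likelihood test with Benjamini-Hochberg adjustment), or -3.14 relative to the median gene. Macrophages had 13.3, 25.04 and 56.1 CPM of C3, against 51.5, 138 and 311 CPM in monocytes of the same 10 tags, with a small overlap. The log2 difference was -2.52 ± 0.16, lower in 10 of 10 tags, and -1.80 without library 1. Monocytes and neutrophils of 6 tags did not pass the test for a difference in C3 (log2 -0.07 ± 0.18, adjusted p = 0.763 by the same edgeR test, where 55.1% of all genes passed). Monocytes were lower in C3 than fibroblasts in 3 of 3 tags (-1.50 ± 0.34, where 48.2% of all genes passed).

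DC, T and B cells had little C3, and the macrophage median of 25.04 CPM stood against 21.3 CPM in DC, 17.2 CPM in T cells and 24.6 CPM in B cells. None of these differences passed the test. The log2 differences of macrophages were 0.20 ± 0.15 from DC, 0.39 ± 0.31 from T cells and -0.09 ± 0.13 from B cells. Without library 1 the first 2 passed, at 0.68 and 0.76. The highest T value, 241 CPM in tag 10 of library 1, came from few cells: 1 cell held 112 of the 118 C3 molecules of that tag's 20 T cells. That cell also held 3024 molecules of fibroblast markers among its 110457, and the T cells of that tag had 6189 CPM of fibroblast markers.

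C3 was sparse in macrophages, with a median of 0 molecules per cell. The 10% of macrophages with most C3 held 73.6% of the class's C3 molecules, against 37.9% in monocytes, 57.8% in neutrophils and 63.9% in fibroblasts for the same share of cells. It was higher still in DC (81.8%), T cells (88.8%) and B cells (80.9%), so this was not particular to macrophages. These classes also had a median of 0 molecules per cell. Few molecules per cell raise such a share, so no subset of C3-carrying cells can be read from it. A C3 molecule was found in 24.3% of macrophages, 62.8% of monocytes, 36.7% of neutrophils and 54.5% of fibroblasts, against 14.9% of T and 19.6% of B cells. At 1000 molecules per cell the shares were 2.53%, 12.5%, 12.1% and 20.3%, against 1.39% in T and 2.95% in B cells. At equal depth the macrophage share was no higher than that of B cells, whereas monocytes, neutrophils and fibroblasts stood above both lymphocyte classes. The 412 macrophages with 5 or more C3 molecules, a limit set after the values were seen, were 2.96% of the class, held 42.1% of its C3 and came from all 18 tags. They had 193 CPM of Ly6c2, against 75.0 CPM in the 10528 macrophages without C3, and 1335 against 796 CPM of monocyte markers. Neutrophil markers stood at 1012 against 690.3 CPM and fibroblast markers at 69.1 against 47.2 CPM. The lipid list (Gpnmb, Fabp4, Fabp5, Trem2, Spp1) stood at 5885 against 11667 CPM and C1q at 5374 against 5922 CPM. The 2965 macrophages with some but fewer C3 molecules held 57.9% of the class's C3. In the same order they had 170, 1309, 867, 42.5, 8633 and 5277 CPM, so fibroblast markers were not raised in them. These values describe the cells and were not tested.

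Properdin (Cfp), which myeloid cells are known to make, was spread over the leukocytes. Macrophages had 174, 311 and 474 CPM as lowest, median and highest tag, against 196, 386 and 508 CPM in DC, with overlapping ranges. Macrophages were lower than DC by a log2 difference of -0.27 ± 0.05 (adjusted p = 3.58e-05 by edgeR's quasi-likelihood test with Benjamini-Hochberg adjustment), in 15 of 18 tags, and by -0.52 ± 0.07 in 17 of 17 tags with DC that met the macrophage criterion left out, an alternative added after seeing the data in which 32% of all genes were lower. The call against all DC was lost without the tag block (adjusted p = 0.0532 by the same test) and in library 2 alone (-0.23, adjusted p = 0.0566). In Cfp, DC were also higher than T cells (0.98 ± 0.10, 18 of 18 tags), B cells (0.36 ± 0.07, 17 of 18) and monocytes, which stood at -0.51 ± 0.09 from them. Of all genes, 48.6%, 31.9% and 52.9% passed in these comparisons. Of the 10 tags with enough monocytes 7 belong to library 1, where the monocyte median of Cfp was 217 CPM. Among the 7 classes, without library 1 the median over tags was highest in monocytes, not DC. The 4829 cells that met no criterion entered no test, and they had 307, 522 and 758 CPM of Cfp as lowest, median and highest tag.

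Fibroblasts had almost no Cfp, and macrophages had 174, 300.0 and 474 CPM, against 6.78, 16.4 and 35.1 CPM in fibroblasts of the same tags. The log2 difference was 4.18 ± 0.20, in 9 of 9 tags and without overlap. Macrophages had 252, 334 and 474 CPM against 108, 197 and 302 CPM in neutrophils, a log2 difference of 0.67 ± 0.16 that shrank to 0.14 relative to the median gene and did not pass without library 1 (adjusted p = 0.0659 by the same edgeR test). Macrophages had 279, 338 and 386 CPM against 179, 247 and 524 CPM in monocytes, and the difference of 0.22 ± 0.11 did not pass (adjusted p = 0.0990), but passed without library 2 (0.33) or library 3 (0.30). Cfp was found in 86.8% of macrophages, 83.1% of DC and 72.6% of monocytes. At 1000 molecules the shares were 23.9% in macrophages, 25.9% in DC and 16.8% in monocytes, against 9.93% in T cells that did not meet the macrophage criterion. B cells that did not meet it held more: pooled over tags, Cfp stood at 100.4% of the macrophage level in them and 46.4% in those T cells.

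Cfb was nearly absent. It was found in 59 of 13905 macrophages, 0.424% (exact Clopper-Pearson 95% interval 0.323 to 0.547%, counting error only), with 63 molecules in all. Fibroblasts held 4 molecules, monocytes 4, DC 4, T cells 5 and B cells 3. In 488 neutrophils 0 cells had one, which allows a share of up to 0.615%. No order of classes can be read from so few molecules.

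The receptors for the fragments divided the myeloid cells. C3ar1, the receptor for C3a, had 856, 966 and 1122 CPM in macrophages, against 220.1, 264 and 419 CPM in monocytes of the same tags. It had 930.1, 972 and 1122 CPM in macrophages, against 29.3, 91.1 and 142 CPM in neutrophils. It had 827, 960.2 and 1042 CPM in macrophages, against 12.8, 31.97 and 69.5 CPM in fibroblasts. None of these ranges overlapped, and macrophages were the highest class. The log2 differences were 1.67 ± 0.08 from monocytes (adjusted p = 1.24e-11 by edgeR's quasi-likelihood test with Benjamini-Hochberg adjustment), 3.42 ± 0.19 from neutrophils and 4.85 ± 0.26 from fibroblasts, in every tag tested. From DC the difference was 1.20 ± 0.04, with 431 CPM as the DC median and no overlap, and 3.52 with DC that met the macrophage criterion left out. Monocytes stood above neutrophils by 1.43 ± 0.20, in 6 of 6 tags. At 1000 molecules 56.6% of macrophages, 19.9% of monocytes and 4.30% of neutrophils had a C3ar1 molecule. The share was 5.18% in T cells that did not meet the macrophage criterion. The neutrophil share was no higher than that, and the source of neutrophil C3ar1 was not tested. Pooled over tags, C3ar1 stood at 7.53% of the macrophage level in those T cells and 15.7% in such B cells.

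C5ar1, the receptor for C5a that draws neutrophils, ran in another order. Macrophages of the 9 tags with enough neutrophils had 404, 662 and 752 CPM as lowest, median and highest. Neutrophils had 1564, 1606, 1640, 1932 and 1450 CPM in 5 tags of library 1, 1416 CPM in 1 tag of library 2 and 1150, 1689 and 1572 CPM in 3 tags of library 3. Every neutrophil value was above every macrophage value. Macrophages were lower by a log2 difference of -1.48 ± 0.15 (adjusted p = 1.35e-13 by edgeR's quasi-likelihood test with Benjamini-Hochberg adjustment), or -2.02 relative to the median gene. Macrophages had 452, 645 and 752 CPM against 311, 562 and 771 CPM in monocytes, and the difference of 0.11 ± 0.07 did not pass (adjusted p = 0.195 by the same test, 8 of 10 tags higher). Monocytes were below neutrophils by -1.74 ± 0.16 in 6 of 6 tags. Macrophages had a median of 526 CPM against 269.9 CPM in DC (0.99 ± 0.04). With DC that met the macrophage criterion left out, the DC median was 94.1 CPM and the difference 2.46 ± 0.19. Macrophages had 472 CPM against 32.4 CPM in fibroblasts of the same tags (3.93 ± 0.22). At 1000 molecules 40.8% of macrophages, 40.5% of monocytes and 76.8% of neutrophils had a molecule, against 7.05% of T cells that did not meet the macrophage criterion. Pooled over tags, C5ar1 stood at 14.7% of the macrophage level in those T cells and 43.2% in such B cells.

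Macrophages also differed among themselves. Ranges were set within each tag: the 25% of macrophages with the highest share of molecules from a gene list against the rest, macrophages with 2 or more Ly6c2 molecules against those with 0, and macrophages with an F7 molecule against those with 0. They are ranges of 1 class, not cell types. Of the 7 genes tested, 6 were higher and 0 lower with the resident list (15.2% and 14.8% of all genes), 1 and 4 with the MHC class II list (25.8% and 26.9%), 2 and 3 with the wound list (20.6% and 21.1%) and 1 and 4 with the lipid list (29.4% and 34.2%). With the interferon list (Isg15, Rsad2, Cxcl10 and others) 5 were higher and 0 lower (14.7% and 12.9%), of which 1 passed without library 1. In Ly6c2 positive cells 1 was higher and 3 lower (19.4% and 21.9%), and in F7 positive cells 0 and 4 (17.7% and 18.8%). The high and low sides also differed in depth, with median molecules per cell of 30705 against 18465 for the lipid list, 26313 against 19490 for the resident list and 32063 against 19511 for F7. They were 16142 against 22981.5 for MHC class II and 18574.5 against 21427 for Ly6c2. The part of depth in these differences was not tested.

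C3 had the largest fitted difference of the 7 genes in the Ly6c2, F7, lipid, MHC class II and interferon ranges. With the resident list (-0.31, adjusted p = 0.122 by edgeR's quasi-likelihood test) and the wound list (0.40, adjusted p = 0.158) it did not pass, and Cfp differed most (0.57 and 0.95). Ly6c2, a marker of inflammatory monocytes, divided it. Ly6c2 positive macrophages had 25.7, 47.5 and 149 CPM of C3, against 11.2, 19.98 and 47.8 CPM in Ly6c2 negative ones of the same 13 tags. The ranges overlapped across tags, but C3 was higher in 13 of 13 tags, by a log2 difference of 1.47 ± 0.13 (adjusted p = 6.57e-07 by edgeR's quasi-likelihood test with Benjamini-Hochberg adjustment). Macrophages high in the lipid list (Gpnmb, Fabp4, Fabp5, Trem2, Spp1) had 3.86, 11.9 and 21.7 CPM of C3, against 15.1, 30.8 and 74.7 CPM in the rest. C3 was lower in 18 of 18 tags, by -1.54 ± 0.12 (adjusted p = 1.45e-09 by the same test). Those high in MHC class II genes (H2-Aa, H2-Ab1, H2-Eb1, Cd74) had 19.8, 38.0 and 118 CPM, against 10.9, 23.4 and 56.9 CPM in the rest, a difference of 0.89 ± 0.14 in 17 of 18 tags. F7 positive macrophages had 6.45, 16.5 and 36.9 CPM, against 13.3, 26.3 and 60.1 CPM in F7 negative ones, a difference of -0.68 ± 0.10, lower in 14 of 16 tags and not past the threshold without library 1 (-0.53) or in library 2 alone (-0.07).

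The C1q genes stayed between -0.56 and 0.35 over the 7 ranges. Ly6c2 positive macrophages had 562, 940.2 and 1631 CPM of C1qa, against 882, 1262 and 2204 CPM in negative ones, and the log2 differences were -0.49 ± 0.04 for C1qa, -0.35 ± 0.04 for C1qb and -0.51 ± 0.04 for C1qc, each lower in 13 of 13 tags. F7 positive macrophages had 675, 944 and 1713 CPM of C1qa, against 911, 1792 and 2257 CPM in negative ones, with differences of -0.56 ± 0.07 for C1qa, -0.31 ± 0.06 for C1qb and -0.36 ± 0.08 for C1qc, each lower in 16 of 16 tags. The call for C1qc was lost without library 3 (-0.24). Macrophages high in the resident list (Lyve1, Folr2, Cbr2, Timd4, Cd163) had 1044, 2045 and 2464 CPM of C1qa, against 709, 1687 and 2099 CPM in the rest (0.35 ± 0.04, 18 of 18 tags). Those high in the lipid list differed in C1qa (-0.28 ± 0.03, lower in 18 of 18 tags) while C1qb (0.00 ± 0.03) and C1qc (0.04 ± 0.03) did not pass. With the interferon list the C1q genes were 0.12 to 0.15 higher, a call that C1qb and C1qc lost without library 1 (0.09 each).

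Receptors and properdin had their own pattern. Macrophages high in the wound list (Arg1, Ppbp, Saa3, Slpi) had 268, 428 and 742 CPM of Cfp, against 139, 239 and 357 CPM in the rest, higher by 0.95 ± 0.13 in 18 of 18 tags (adjusted p = 1.19e-05 by edgeR's quasi-likelihood test with Benjamini-Hochberg adjustment). C5ar1 was higher there too, at 466, 687 and 889 CPM against 285, 458 and 708 CPM (0.57 ± 0.04, 18 of 18 tags), and the 3 C1q genes were lower by log2 differences of -0.24 (C1qa) to -0.27 (C1qc). C3ar1 had 850.4, 1114 and 1228 CPM in macrophages high in the lipid list, against 767, 886 and 1069.8 CPM in the rest (0.38 ± 0.03, 18 of 18 tags). It was lower in those high in MHC class II genes, by -0.37 ± 0.03 in 18 of 18 tags, as were C5ar1 (-0.28 ± 0.04) and Cfp (-0.50 ± 0.06). In Ly6c2 positive macrophages C3ar1, C5ar1 and Cfp did not pass the test.

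**Figure D5:**
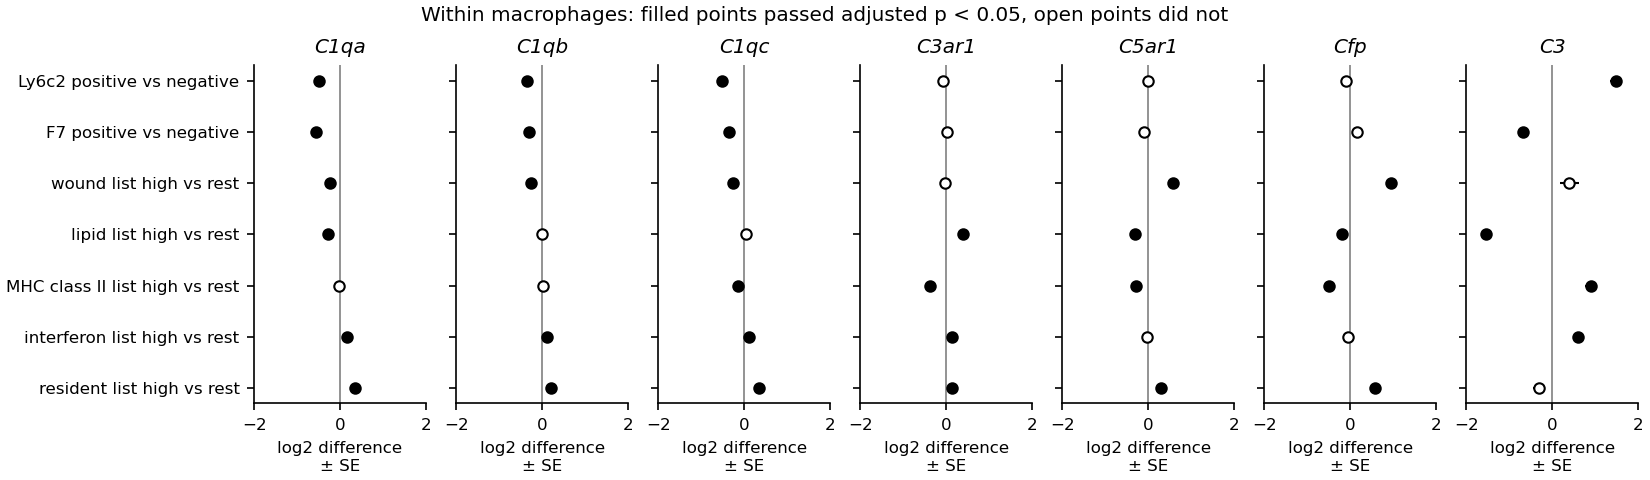
Log2 difference (x axis, ± SE) within macrophages for 7 complement genes (panels) and 7 ranges of the class (rows), positive where the first named side was higher; filled points passed an adjusted p of 0.05. C3 ranges from -1.54 in cells high in the lipid list to 1.47 in Ly6c2 positive cells, while the C1q genes stay between -0.56 and 0.35.

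Genes whose levels ran most like each member's were found over 100 values of a tag and class, among 3581 genes, by Pearson's r of log2(CPM + 10). These points share libraries, tags and class make-up. For C1qa, leaving the other members aside, they were Trem2 (0.953), Apoe (0.946), Abhd12 (0.931), Ms4a7 (0.927), which is a gene of the class rule, and Cd72 (0.917). For C3ar1 they ran from Lgmn (0.944) and Cd68 (0.943) through Adgre1, also a gene of the class rule, and Ctsa to Ctsb (0.935). For C5ar1 they ran from Tlr13 (0.957) and Adam8 (0.944) through Clec4d and Pilra to Rap1b. Cfp was most like Nrros (0.912), Fermt3, Arpc2, Plcg2 and Sh3bgrl3. C3 had no close match, with Tpm4 (0.764), S100a6 (0.747), Mettl9 and Hspa13 (0.711) among the nearest.

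Of 56 other complement genes 54 had a column, and most were too low to be tested. Against monocytes 17 were tested, of which 7 were higher and 4 lower in macrophages (34.7% and 33.3% of all genes), with a median log2 difference of 0.12 beside 0.02 over all genes. Cd59a, which blocks the membrane attack complex, had a median of 10.5 CPM in macrophages against 1.02 CPM in monocytes (2.43 ± 0.48), the scavenger receptor Colec12 12.8 against 4.28 CPM (1.39 ± 0.18) and C1qbp, which binds C1q, 26.9 against 13.2 CPM (1.04 ± 0.14). The chains of complement receptor 3 were lower, Itgam with 592 against 1083 CPM (-0.86 ± 0.06) and Itgb2 with 550 against 916 CPM (-0.78 ± 0.07). Against neutrophils 16 were tested, 11 higher and 4 lower (39.7% and 20.8% of all genes), with a median of 1.97 beside 0.53 over all genes. C4b (4.01 ± 0.48) and Fcna (3.41 ± 0.45) had the largest differences in favour of macrophages, and both had a neutrophil median of 0. C5ar2, the other C5a receptor, had 26.2 CPM in macrophages against 69.6 CPM in neutrophils (-1.70 ± 0.25), and Itgax (-1.54 ± 0.24) and Itgb2 (-0.68 ± 0.15) were also lower. Against fibroblasts 24 were tested, 8 higher and 13 lower (35.2% and 32.3% of all genes), with a median of -0.55 beside 0.05 over all genes. The regulators and proteases Serping1, Clu, C1s1 and C1ra had medians of 2.55, 2.18, 0.357 and 7.55 CPM in macrophages over all tags, against 900, 292, 210 and 101 CPM in fibroblasts.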

How the data were processed

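CD45-selected cells of infarcted hearts were measured as polyadenylated RNA in 3 BD Rhapsody libraries. The deposited values are counts of molecules per cell and gene, deduplicated and error-corrected by the authors' pipeline, version 2.0b1 for library 1 and 1.10 for the others, with GENCODE M19 on GRCm38 as the annotation, per the file headers. The aligner's settings were not given in the sources used here. Only library 1 counts intronic reads, which can raise counts of genes with long introns.

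Cells under 200 genes were left out and classes assigned by the rule in the report. For each class, counts of all its cells in a tag (20 or more) were added up. They went into edgeR 4.0.16 in R 4.3.3 (quasi-likelihood, robust, TMM, filterByExpr, tag as block), with Benjamini-Hochberg adjustment and a threshold of 0.05. DESeq2 1.42.0 served as an alternative. Each tag holds 1 biological replicate per the labels, so the tag was the pairing in every test. Whether the tags pair the classes needs no check, since both come from the same replicate. Intervals cover counting error only.

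Named were all 8 members, the 5 genes most like each, and the 3 highest and 3 lowest called genes of the wider list against monocytes and neutrophils. Fibroblast medians of that list were chosen after their values were seen. Members and lists were chosen with earlier results of these data known. Steps were tested on simulated data. For edgeR these followed macrophages against monocytes with few genes changed, so they do not test the scaling where many genes differ. Some genes that the rule for named genes picks are not reported here.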

Additional observations from a re-analysis of the deposited data

Results flagged for a closer look

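Cells that met no class criterion (4829) entered no comparison, and all 8 genes were found in them. Pooled, they held 569 CPM of C1qa, 1166 of C1qb, 929.8 of C1qc, 50.5 of C3, 439 of C3ar1, 624 of C5ar1, 522 of Cfp and 0.330 of Cfb. Of these cells 3205 had a molecule of Ms4a7 or Adgre1, with 3109 CPM of summed C1q and 563 CPM of Cfp, and 1624 had neither, with 758 CPM of C1q and 346 CPM of Cfp. Within these same 4829 cells, 191 carried NK genes, with 459.7 CPM of C1q and 78.1 CPM of Cfp.

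Cfb in macrophages stood apart in 1 tag of library 1 (tag 11, 0.232 CPM from 7 molecules, the nearest other tag at 0.0677 CPM) and in 1 tag of library 2 (tag 1, 1.06 CPM from 5 molecules, the nearest at 0.422 CPM). These were 2 of 27 groups examined, and chance flags about 1 in 20. In 0 of 91 pairs of member and contrast were all tags of 1 library above 0 and all tags of another below it, by the log2 ratio per tag with 10 CPM added.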

How the results depend on the processing

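Of 70 member values past the threshold in comparisons of macrophages, 43 stayed past it in the same direction under each setting listed at the outset and 0 changed sign. With no replicate block (the tag pairing left out), members called numbered 2 for the resident list, 3 for MHC class II, 2 for the wound list, 2 for the lipid list, 1 for the interferon list and 2 for Ly6c2, against 6, 5, 5, 5, 5 and 4 with it. In library 2 alone the lipid list gave 3, F7 gave 2 (against 4) and the interferon list 0. In library 3 alone Ly6c2 gave 2 and the interferon list 0. At an unadjusted p under 0.05 edgeR's quasi-likelihood test had 4 members for the interferon list in library 2 and 1 in library 3, and DESeq2 was not run within libraries. Leaving out each library in turn gave 1 to 5 for the interferon list, with 1 without library 1. C3ar1 with the wound list (-0.03) and C1qb with the lipid list (-0.0031) did not pass over all libraries, but in library 1 alone they were positive and passed, at 0.12 (adjusted p = 0.0058 by edgeR) and 0.088 (adjusted p = 0.0247).

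C1q in lymphocytes, as a percent of the macrophage level, was 6.73 for T and 25.4 for B cells without cells that meet several criteria, 6.22 and 16.5 without those that meet the macrophage one (added after seeing the data) and 30.6 and 40.7 after thinning. Without 1 library it was 42.5 to 48.6 for T and 56.9 to 58.1 for B cells. Leaving macrophage-criterion cells out of DC, T and B cells (also added) turned these log2 differences of monocytes from negative to positive: against DC, C1qa 0.37, C1qb 0.58, C1qc 0.57 and C3ar1 1.82; against T cells, C1qa 1.01, C1qb 1.16, C1qc 1.18 and C3ar1 2.48; against B cells, C1qb 0.054 and C3ar1 1.19. Of these C1qa against DC (adjusted p = 0.157 by edgeR) and C1qb against B cells (adjusted p = 0.905) did not pass. These changes follow from the cells left out. C3 passed from DC (0.33) and T cells (0.62) with DESeq2's Wald test, and from DC (0.89) and T cells (2.36) without cells that meet several criteria. C5ar1 (0.18) and Cfp (0.30) passed from monocytes with no filter on low counts. Without library 1 Cfp was highest in monocytes, not DC.

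Over all genes, calls against monocytes numbered 7132, but 1001 without library 1 and 721 in library 2 alone. Against DC they were 6697, with 3055 in library 2 and 3609 in library 3. Against neutrophils they were 5931, with 3932 without library 1 and 3307 in library 3. Without cells that meet several criteria they were 3910 against T cells (7018 with) and 2782 against B cells (5182 with), where library 2 gave 2050 and library 3 2975. For the ranges of macrophages, no tag block gave 838 to 4576 calls where the block gave 3039 to 7032. Cfb had too few molecules for any test, and 3 tags limit monocytes against fibroblasts. Monocytes in library 3, neutrophils in library 2 and fibroblasts in library 1 had too few tags for a fit of their own.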
